A study of Mus musculus with 9 samples.

Results

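Notch signalling passes between touching cells. A ligand of the Delta or Jagged family on one cell binds a Notch receptor on its neighbour, the receptor is cut by ADAM and gamma-secretase proteases, and its freed intracellular domain joins the DNA-binding protein RBPJ to switch on genes of the Hes and Hey families. In the developing pituitary the pathway is known for keeping progenitors undifferentiated and for shaping the order in which hormone lineages appear.

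The genes described here were the receptors Notch1, Notch2 and Notch3, the ligands Dll1, Jag1 and Jag2, and the basic helix-loop-helix factors Hes1, Hes6 and Hey1, 9 of the 55450 annotated genes, chosen by name. All 9 were among the 19371 genes tested. RNA was sequenced from Rathke's pouch, the epithelial primordium of the anterior and intermediate lobes, of 7 embryos at e13.5 that carried a Sox2 Egfp/+ genotype, and from the pituitary of 2 adult mice at postnatal week 8 whose posterior lobe had been taken off. The strain given for the embryos and the adults was 129Sv/c57BL6J. Read pairs counted on genes numbered between 16738863 and 28537311 per embryo (median 24687556), and were 36421545 in adult 1 and 31191117 in adult 2. With 2 adults the spread of that group rests on a single difference. The methods of the study give 1 male and 1 female adult, so that this difference is also one of sex, and 2 male and 5 female embryos, without saying which library is which. They name no genotype for the adults.

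The labels were checked against defining markers. Of 6 markers of the pituitary primordium, 2 (Lhx4 and Hesx1) were called higher in the embryo and 0 in the adult, and of 14 hormone cell markers 0 were called higher in the embryo and 12 in the adult. Of all tested genes, 11.3% were called higher in the embryo and 14.6% in the adult. A gene was called when its Benjamini-Hochberg adjusted p from the edgeR quasi-likelihood test was below 0.05 and its fold change was above 4. The libraries of embryos 1 and 4 stood apart from the other embryos before any Notch gene was considered. The share of read pairs that fell on genes was 59.7% and 62.8% in them and between 73.9% and 80% in the remaining 5 embryos, and their summed level of 9 erythroid markers was 180362 and 225340 CPM (counts scaled to library sizes with TMM factors) against 6432 to 20030 CPM in the others. Where leaving out both libraries changed a call, or for a Notch pathway gene whether its adjusted p passed, that result is given too.

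Log2 fold changes, given throughout as embryo over adult, fell with transcript length across all genes. Their median was 1.59 in the first length decile (median transcript of 572 bp) and −1.40 in the last (7839 bp). The receptors have long transcripts and the Hes genes short ones, so the values of each member are also given with counts adjusted for the length and GC content of the transcripts. That correction moved the median of all tested genes from −0.04 to −0.16, and corrected values are to be read against the latter.

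**Figure D1:**
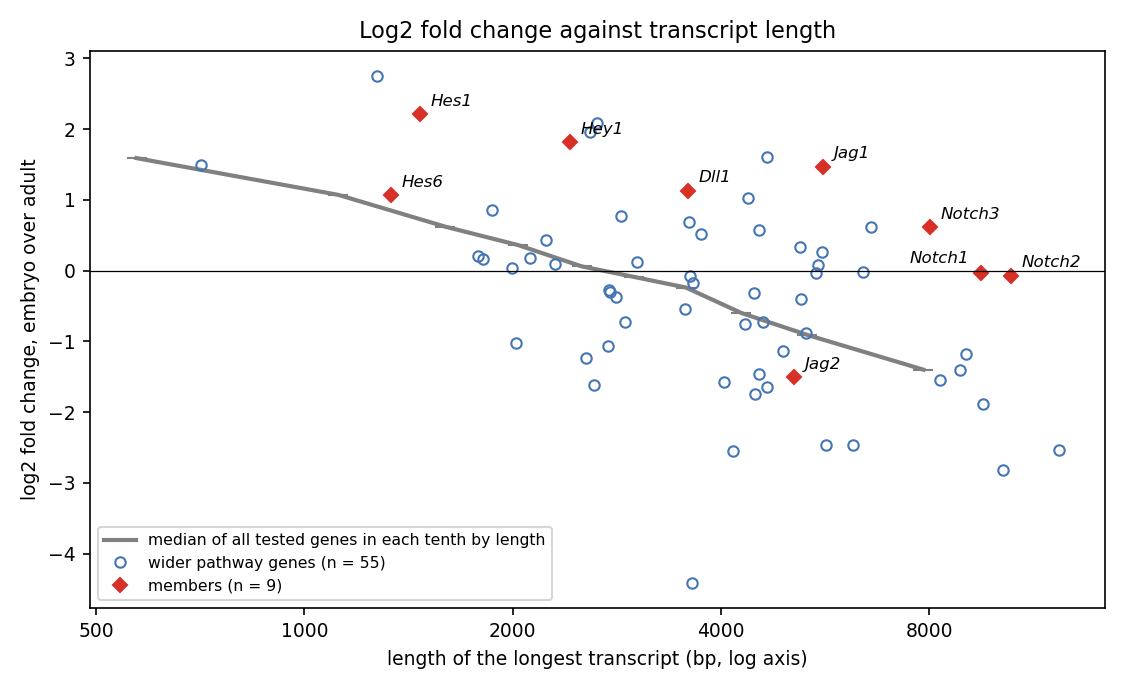
Log2 fold change (embryo over adult) against the length of the longest transcript in bp on a log axis, for the 9 members (diamonds), 55 other tested pathway genes (circles) and the median of all tested genes in each length decile (line). Notch1, Notch2 and Notch3 lie above the line at the long end, and Hes6 lies on it at the short end.

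Of the 9 members, 1 was called higher in the embryo and 0 were called higher in the adult, where 25.8% of all tested genes were called, 11.3% higher in the embryo and 14.6% higher in the adult. By the adjusted p alone, 4 members were higher in the embryo and 1 in the adult, against 24.0% and 27.4% of all tested genes. Of these, Jag1 (1.27, edgeR adjusted p = 0.0587) and Hes6 (0.88, edgeR adjusted p = 0.141) did not pass without adult 2. The median log2 fold change of the members was 1.07, against −0.04 over all tested genes. In 5 members every embryo lay above both adults and in 1 every embryo lay below both, which held for 26.2% and 32.9% of all tested genes. After the correction for length and GC content 1 member was called higher in the embryo and 0 in the adult, where 6.88% and 13.8% of all genes were, but it was another gene: Hes1 was called without the correction and Jag1 with it. By the adjusted p alone, 6 members were then higher in the embryo and 1 in the adult, against 20.2% and 28.2% of all genes.

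**Figure D2:**
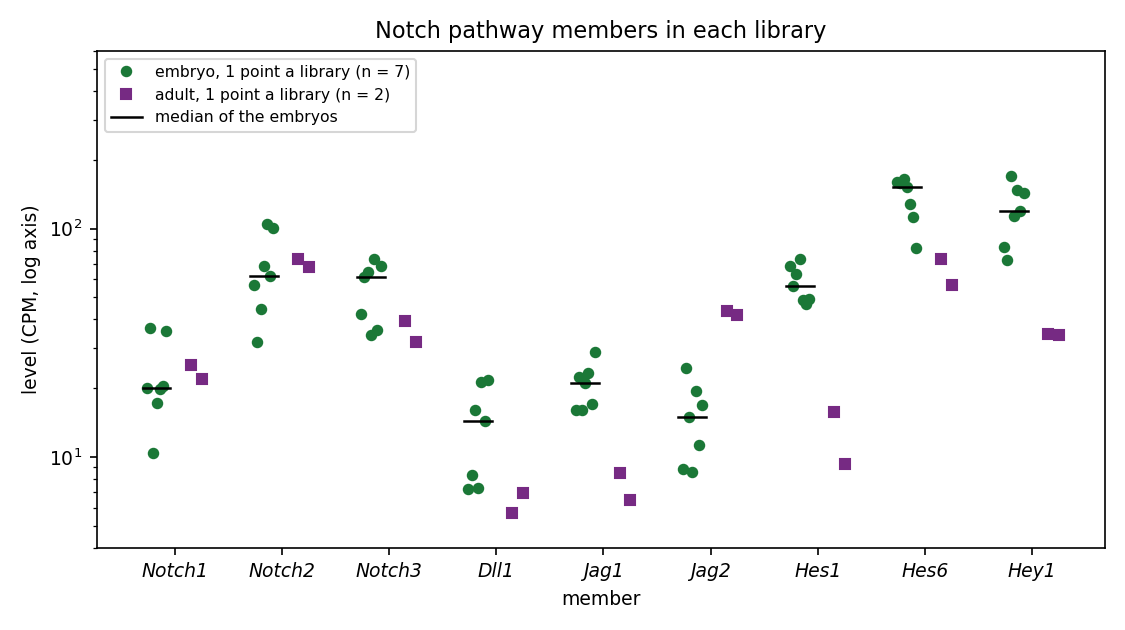
Level of each member in CPM on a log axis, with 1 point for each of the 7 embryo libraries (circles, with their median as a line) and each of the 2 adult libraries (squares). The groups are apart for Dll1, Jag1, Jag2, Hes1, Hes6 and Hey1 and overlap for the 3 receptors.

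Notch1 (ENSMUSG00000026923, chromosome 2, 26457903 to 26516663 in GRCm38, minus strand, 34 exons) encodes a receptor with broad roles in progenitor maintenance and in vessels. It had 10.4 CPM in the lowest embryo, a median of 20.0 CPM and 36.7 CPM in the highest, against 25.2 and 21.9 CPM in adults 1 and 2. Embryos 2 and 7 were above both adults and the other 5 were below both, so that the groups overlapped. Embryo over adult, the log2 fold change was −0.04 (standard error 0.40, edgeR adjusted p = 0.943). It was 1.05 (edgeR adjusted p = 0.05, just under the cut-off before rounding) after the correction for length and GC content, with the groups still overlapping. The direction turned in other settings too.

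Notch2 (ENSMUSG00000027878, chromosome 3, 98013527 to 98150361, plus strand, 34 exons), another receptor, ranged from 31.7 CPM in embryo 2 through a median of 62.2 CPM to 105 CPM in embryo 5, against 73.3 and 67.7 CPM in the adults. Embryos 5 and 7 were above both adults, embryo 4 lay between them and 4 embryos were below both. At a log2 fold change of −0.07 (95% confidence interval −0.88 to 0.74, edgeR adjusted p = 0.883) Notch2 did not pass the test. After the correction the value was 1.11 (edgeR adjusted p = 0.0334), with the groups still overlapping.

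Notch3 (ENSMUSG00000038146, chromosome 17, 32120820 to 32166852, minus strand, 33 exons) encodes a receptor best known from the mural cells of vessels. Its lowest embryo had 34.2 CPM, the median was 61.4 CPM and the highest had 73.5 CPM, against 39.3 and 31.8 CPM in the adults. Embryos 4 and 6 lay between the adults and the other 5 were above both. For Notch3 the log2 fold change was 0.61 (standard error 0.34, edgeR adjusted p = 0.14), which was 0.80 (edgeR adjusted p = 0.0402) without both embryos 1 and 4, and 1.59 (edgeR adjusted p = 0.00189) after the correction, with which every embryo was above both adults.

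Among the ligands, Dll1 (ENSMUSG00000014773, chromosome 17, 15367354 to 15376872, minus strand, 11 exons) encodes a Delta ligand that activates receptors on neighbouring cells. Its lowest embryo had 7.25 CPM, the median was 14.4 CPM and the highest had 21.7 CPM, against 5.67 and 6.92 CPM in the adults. Every embryo was above both adults, but embryos 1 and 4 exceeded the higher adult by little. The log2 fold change of 1.13 (standard error 0.49, edgeR adjusted p = 0.0641) did not pass the test, whereas without both embryos 1 and 4 it was 1.41 (edgeR adjusted p = 0.0113). It also passed in the DESeq2 Wald test (1.10, DESeq2 adjusted p = 0.0357), with no filter (edgeR adjusted p = 0.0495), with unstranded counts and without any 1 of embryos 1, 2 and 4. Alternatives in which it did not pass included library size alone (0.98, edgeR adjusted p = 0.184) and replicate number as a block (0.31, edgeR adjusted p = 0.672). With that block the stage difference rests on embryos 1 and 2 against both adults. After the correction the groups overlapped, with a log2 fold change of 1.01 (edgeR adjusted p = 0.0871), which was 1.24 (edgeR adjusted p = 0.0242) without both embryos 1 and 4 as well.

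Jag1 (ENSMUSG00000027276, chromosome 2, 137081456 to 137116644, minus strand, 26 exons), a Jagged ligand, had 16.0 CPM in the lowest embryo, a median of 21.0 CPM and 28.9 CPM in the highest, against 8.49 and 6.49 CPM in the adults. All 7 embryos were above both adults, with no overlap. This was a log2 fold change of 1.47 (95% confidence interval 0.74 to 2.19, edgeR adjusted p = 0.00247), a 2.76-fold difference short of the threshold of 4. After the correction it was 2.18 (95% confidence interval 1.65 to 2.7, edgeR adjusted p = 2.7e-05) and was called.

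Jag2 (ENSMUSG00000002799, chromosome 12, 112907819 to 112929776, minus strand, 26 exons), the other Jagged ligand, went the opposite way. Its lowest embryo had 8.61 CPM, the median was 15.0 CPM and the highest had 24.5 CPM, against 43.5 and 41.9 CPM in the adults. All 7 embryos were below both adults. Its log2 fold change was −1.51 (95% confidence interval −2.26 to −0.76, edgeR adjusted p = 0.00255), and −1.0 (edgeR adjusted p = 0.0194) after the correction, so that it kept its direction and stayed short of a call.

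Hes1 (ENSMUSG00000022528, chromosome 16, 30064384 to 30067796, plus strand, 4 exons) encodes a transcriptional repressor that is a direct target of the pathway. It had 46.9 CPM in the lowest embryo, a median of 56.2 CPM and 73.7 CPM in the highest, against 15.8 and 9.28 CPM in the adults. Every embryo lay above both adults, and the adults themselves were further apart than for Hey1. The log2 fold change was 2.21 (95% confidence interval 1.51 to 2.91, edgeR adjusted p = 1.1e-04), a 4.62-fold difference and the single call among the members. All tested genes of its length decile had a median of 0.62. The call was lost after the correction (1.17, edgeR adjusted p = 0.00465), with library size alone (1.96, edgeR adjusted p = 4.0e-04) and without adult 2 (1.86, edgeR adjusted p = 0.00683), each time because the fold change fell below 4. Across 20 alternatives the value ran from 1.07 to 2.62.

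Hes6 (ENSMUSG00000067071, chromosome 1, 91411483 to 91414038, minus strand, 4 exons) encodes a relative of Hes1 that antagonises it and promotes differentiation. Its lowest embryo had 82.2 CPM, the median was 152 CPM and the highest had 165 CPM, against 73.4 and 56.6 CPM in the adults. Every embryo was above both adults, embryo 7 by the least. The log2 fold change of 1.07 (standard error 0.31, edgeR adjusted p = 0.0101) equalled the median of its length decile, 1.07. After the correction it was −0.12 (edgeR adjusted p = 0.546) and the groups overlapped.

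Hey1 (ENSMUSG00000040289, chromosome 3, 8663359 to 8667256, minus strand, 5 exons), a repressor of the related Hey family and a target of the pathway, had 72.7 CPM in the lowest embryo, a median of 119 CPM and 169 CPM in the highest, against 34.5 and 34.2 CPM in the adults. All embryos were above both adults, before and after the correction. For Hey1 the log2 fold change was 1.82 (95% confidence interval 1.06 to 2.57, edgeR adjusted p = 7.7e-04), and 1.24 (edgeR adjusted p = 0.00432) after the correction. With replicate number as a block it was 1.18 (edgeR adjusted p = 0.00757). That fit sets only embryos 1 and 2 against the adults. The length decile of Hey1 had a median of 0.06.

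**Figure D3:**
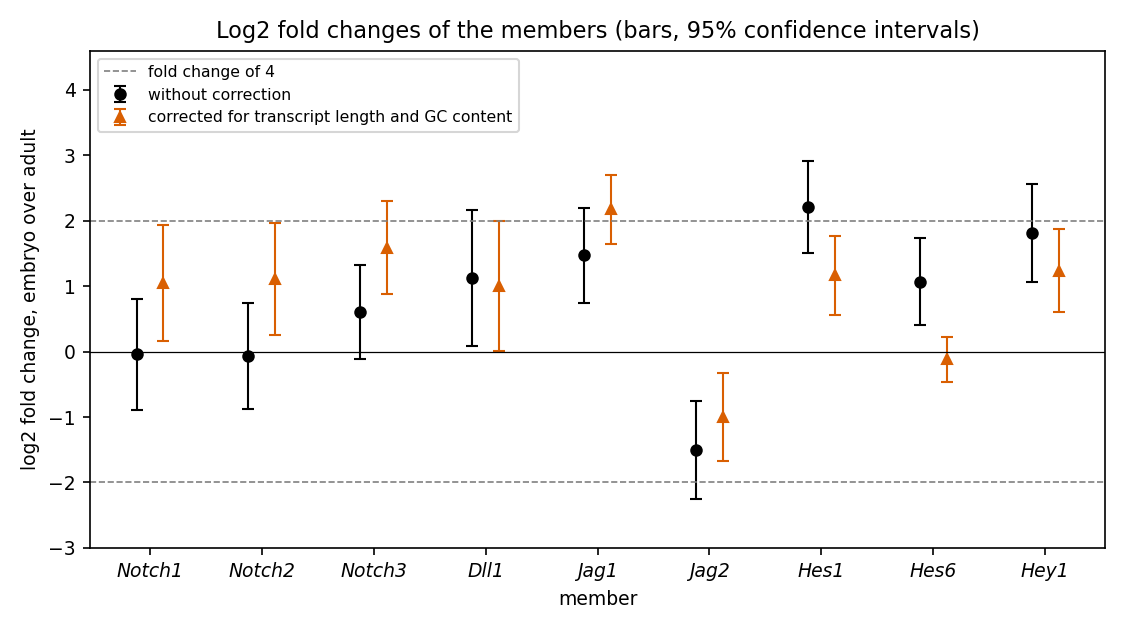
Log2 fold change of each member, embryo over adult, with its 95% confidence interval, without (circles) and with (triangles) the length and GC correction; dashed lines mark a fold change of 4. The receptors move up and the Hes and Hey1 genes move down with the correction, and Hes1 and Jag1 each pass a fold change of 4 in 1 of the 2 fits.

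Levels were compared between members only per length, as CPM per kb of the longest transcript. In the embryo Hes6 had the highest mean, 102 ± 23.0 CPM per kb (SD, n = 7), followed by Hey1 with 50.0 ± 14.4 (SD, n = 7) and Hes1 with 39.5 ± 7.22 (SD, n = 7). Hey1 was above Hes1 in 4 of 7 embryos, so that their order was not beyond the spread. All 7 embryos had more Hes1 than Notch3, with no overlap of the ranges. The receptors and ligands had means of 6.78 (Notch3), 6.38 (Notch2), 3.84 (Dll1), 3.69 (Jag1), 2.93 (Jag2) and 2.41 CPM per kb (Notch1), and the range of each overlapped that of the next. In the adult the order began with the same 3 genes, Hes6 with 48.7 ± 8.93 (SD, n = 2), Hey1 with 14.2 ± 0.0816 (SD, n = 2) and Hes1 with 8.54 ± 3.14 CPM per kb (SD, n = 2). Jag2 followed at 8.36 ± 0.229 (SD, n = 2) and was not apart from Hes1, and Jag1 came last at 1.33 ± 0.251 CPM per kb (SD, n = 2).

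The shares of each ligand in the summed per-length level of Dll1, Dll3, Dll4, Jag1 and Jag2 were computed in each library. Jag1 made up 20.6% to 36.4% in the embryos (median 26.1%) and 7.71% and 6.16% in the adults. Jag2 made up 16.4% to 28.3% (median 19.0%) and 43.4% and 43.6%. Every embryo was above both adults for Jag1 and below both for Jag2. Dll1 was likewise higher in every embryo, 13.7% to 34.6% (median 31.6%) against 8.07% and 10.3%, and Dll3, a Delta family member that does not activate receptors on other cells, was lower in every embryo, 11.1% to 23.2% (median 13.3%) against 31.7% and 36.0%. For these 4 ligands the exact two-sided permutation p, taken as 2 times the smaller tail, was 0.0556. Taken so, it is the smallest value that 2 against 7 libraries can give, and no share could pass 0.05. After Benjamini-Hochberg adjustment over 9 shares it was 0.125. The mean differences, embryo minus adult, were 19.5 (Jag1), −23.5 (Jag2), 17.2 (Dll1) and −18.4 (Dll3) percentage points. Dll4, a ligand of vessels, overlapped between the groups, with 23.3% in embryo 2 and 7.85% to 13.1% in the other embryos, against 9.07% and 3.91%.

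**Figure D4:**
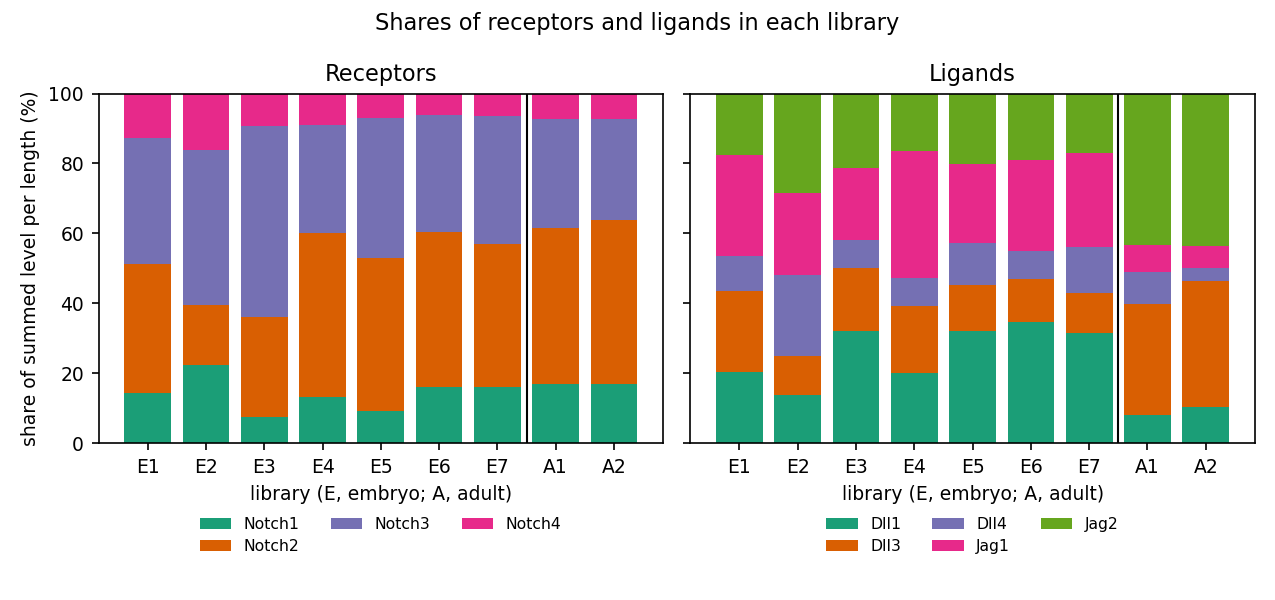
Share of each receptor (left) and ligand (right) in the summed per-length level of its family in percent, with 1 bar for each embryo (E) and adult (A) library. Jag2 and Dll3 take more of the adult bars and Jag1 and Dll1 more of the embryo bars, while the receptor shares overlap.

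Among the receptors, Notch3 made up 30.8% to 54.7% in the embryos (median 36.6%) and 31.3% and 28.9% in the adults, and Notch2 17.4% to 47.0% (median 41.0%) and 44.6% and 47.0%. The groups overlapped for Notch1, Notch2, Notch3 and Notch4 (exact two-sided permutation p from 0.111 to 0.556). The summed per-length level was 17.2 ± 4.27 CPM per kb (SD, n = 7) in the embryo and 14.7 ± 1.37 (SD, n = 2) in the adult for the receptors, and 14.4 ± 3.94 (SD, n = 7) and 19.2 ± 0.589 (SD, n = 2) for the ligands. These sums were taken without the length and GC correction. With it, the log2 fold changes of Notch1, Notch2, Notch3 and Notch4 were 1.05, 1.11, 1.59 and 1.37.

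A wider list held 61 other genes of the pathway, of which 56 were tested, and 3 were called higher in the embryo and 6 in the adult, where 11.3% and 14.6% of all tested genes were. By the adjusted p alone 9 were higher in the embryo and 20 in the adult (24.0% and 27.4% of all), and the median log2 fold change was −0.29. After the correction 1 was called higher in the embryo and 3 in the adult (6.88% and 13.8% of all), and 3 genes (Dner, Neurl1a and Neurog3) were called both ways, which is 3 of 9 calls without and 3 of 4 with the correction. Without both embryos 1 and 4, 4 were called higher in the embryo and 7 in the adult, Nrarp and Fbxw7 being added. Ncor1 (−1.86, edgeR adjusted p = 2.7e-05) and Ctbp1 (0.86, edgeR adjusted p = 0.0176) then passed the adjusted p and Furin (−0.64, edgeR adjusted p = 0.0674) no longer did. With the correction, leaving out both embryos let Rfng (−0.64, edgeR adjusted p = 0.0276), Ncor1 (−0.59, edgeR adjusted p = 0.00818), Fbxw7 and Hes5 pass. The directions of Rfng and Ncor1 turned between fits. With all embryos, Rfng was at 0.18 (edgeR adjusted p = 0.706) without the correction, and Ncor1 at 0.14 (edgeR adjusted p = 0.844) with it. The genes Hes2, Hes3, Neurog1, Neurog2 and Atoh1 were too low to be tested.

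Of 4 genes for the endocytosis of ligands, which the sending cell needs to pull on the receptor, 3 were called higher in the adult (14.6% of all genes) and 1 after the correction (13.8%). Mib1, a ubiquitin ligase for ligands, had 8.73 to 26.5 CPM in the embryos (median 19.6) and 126 and 132 CPM in the adults, a log2 fold change of −2.82 (edgeR adjusted p = 8.2e-06) that was −1.0 (edgeR adjusted p = 5.2e-04) and not called after the correction. Neurl1a, another such ligase, had 10.4 to 31.9 CPM (median 23.8) and 130 CPM in each adult, a log2 fold change of −2.55 (edgeR adjusted p = 1.6e-05), and −2.26 (edgeR adjusted p = 9.4e-06) after the correction. Neurl1b had a log2 fold change of −2.46 (edgeR adjusted p = 0.00316), which was −1.92 and not called after the correction. All embryos were below both adults for these 3 genes, whereas Mib2 overlapped between the groups.

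Of 4 atypical ligands, 2 were called higher in the adult (14.6% of all genes) and 1 after the correction (13.8%). Dner, a neuronal transmembrane ligand, had 7.48 to 21.2 CPM in the embryos (median 11.9) and 280 and 288 CPM in the adults, a log2 fold change of −4.41 (edgeR adjusted p = 4.1e-07), and −4.49 after the correction. Cntn1 had a log2 fold change of −2.47 (edgeR adjusted p = 4.1e-04), which was −1.37 and not called after the correction. Dlk1, by level the first of the list in both stages before length is taken into account, had 1260 to 2966 CPM (median 2086) in the embryos and 664 and 653 CPM in the adults, and passed the adjusted p but not the fold (1.60, edgeR adjusted p = 0.00271).

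Of 2 other canonical ligands, Dll3 was lower in every embryo (3.76 to 6.50 CPM, median 5.71) than in the adults (16.3 and 17.7 CPM), with a log2 fold change of −1.62 (edgeR adjusted p = 6.2e-04) that was −2.01 and called after the correction. That was the only 1 of 20 alternatives with a call, and it was lost when both embryos 1 and 4 were left out as well (−1.99). Dll4 did not pass the test (0.52, edgeR adjusted p = 0.501), and neither did Notch4, the remaining receptor (0.61, edgeR adjusted p = 0.241). With each library left out in turn, Dll4 ran from 0.00 to 1.27. After the correction Notch4 was at 1.37 (edgeR adjusted p = 0.0033), with every embryo above both adults, and Dll4 at 0.41 (edgeR adjusted p = 0.559). Of 9 genes for cleavage of the receptor, 0 were called without or with the correction, where 25.8% of all genes were called without it. Psen2, a catalytic subunit of gamma-secretase, had a log2 fold change of −1.02 (edgeR adjusted p = 0.00636), which was −1.85 after the correction. Psenen, a small subunit with a transcript of 708 bp, had one of 1.49 (edgeR adjusted p = 0.00241). After the correction Psenen was at −0.46 and passed in the opposite direction (edgeR adjusted p = 0.0222), with every embryo below both adults. Of 5 genes for glycosylation of the receptor, 0 were called in either fit (25.8% of all genes without the correction) and 1 in each passed the adjusted p alone, higher in the embryo (24.0% of all without and 20.2% with the correction). It was Mfng without the correction (0.86, edgeR adjusted p = 0.0277; with it, edgeR adjusted p = 0.997) and Pofut1 with it (0.79, edgeR adjusted p = 0.0067; without it 0.26, edgeR adjusted p = 0.452).

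Of 7 genes of the nuclear complex 0 were called (25.8% of all genes), and of 10 co-repressors 1 (14.6% of all genes were called higher in the adult), Spen, with a log2 fold change of −2.53 (edgeR adjusted p = 1.1e-04) that was −1.15 and not called after the correction. The coactivators Ep300 (−1.89, edgeR adjusted p = 2.4e-04) and Kat2b (−1.65, edgeR adjusted p = 0.00185) were lower in every embryo without reaching a fold of 4, and were at −0.73 (edgeR adjusted p = 0.0482) and −0.95 (edgeR adjusted p = 0.0402) after the correction. Rbpj, which encodes the DNA-binding protein of the complex, had a log2 fold change of −0.03 (edgeR adjusted p = 0.942) with overlapping groups, and 1.10 (edgeR adjusted p = 0.00265) after the correction, with every embryo above both adults. Of 8 genes for receptor turnover 1 was called (11.3% of all genes were called higher in the embryo), Dtx2, a Deltex ubiquitin ligase, with 29.0 to 49.1 CPM in the embryos (median 40.5) and 9.41 and 8.69 CPM in the adults. Its log2 fold change was 2.08 (edgeR adjusted p = 9.6e-05), and 1.64 and not called after the correction. Dtx2 was called in 17 of 20 alternatives. Dtx1, of the same family, went the other way (−1.58, edgeR adjusted p = 4.6e-04; −1.37 after the correction), as did Fbxw7, which marks the receptor's intracellular domain for degradation (−1.74, edgeR adjusted p = 0.00686). Fbxw7 was called without both embryos 1 and 4 (−2.25, edgeR adjusted p = 2.3e-04), whereas after the correction it did not pass (−1.05, edgeR adjusted p = 0.12) and the groups overlapped. With the correction and without both embryos it passed (−1.73, edgeR adjusted p = 4.3e-04) short of a call.

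**Figure D5:**
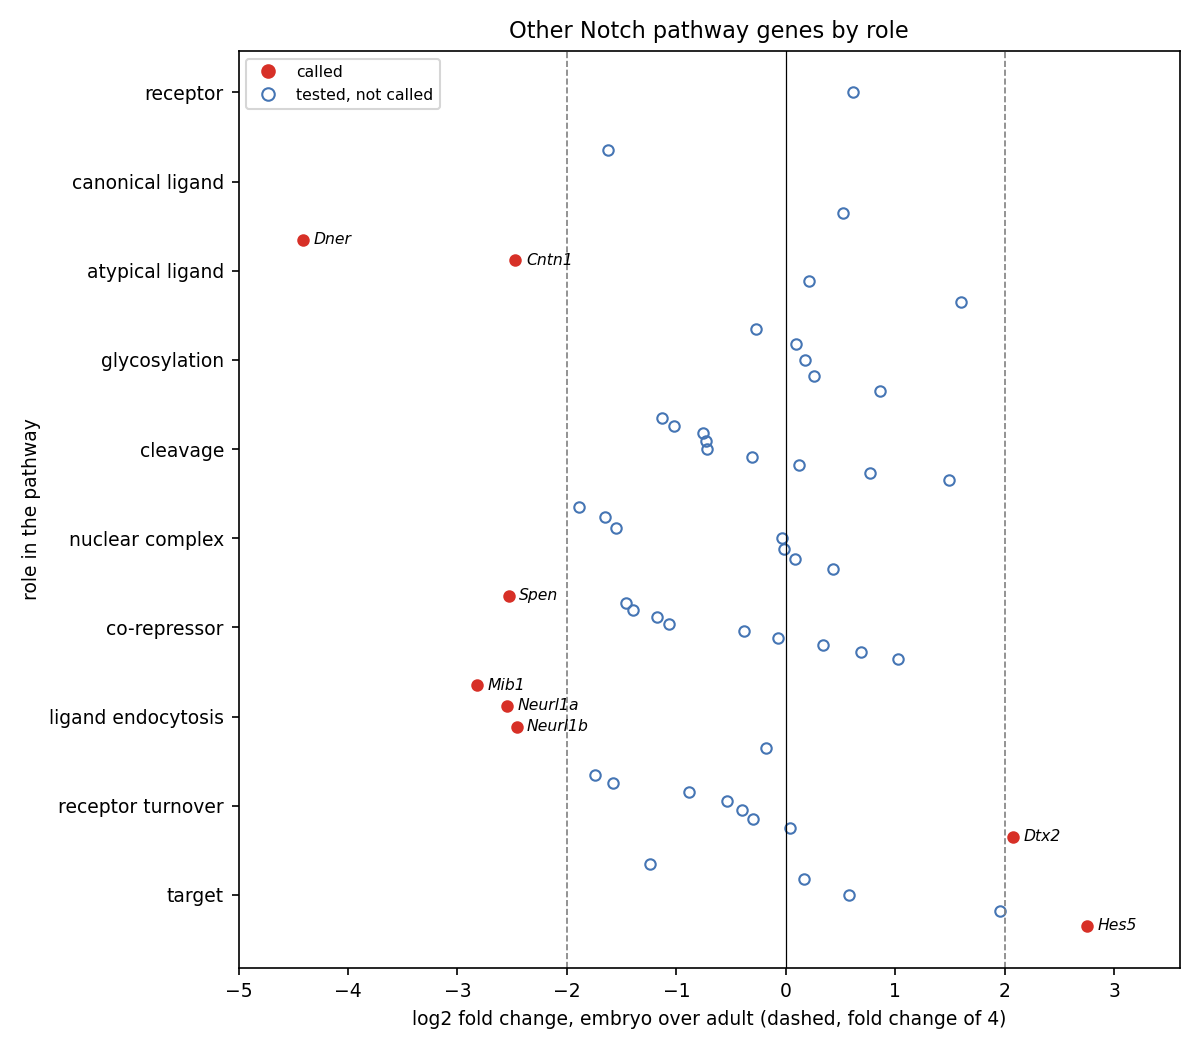
Log2 fold change, embryo over adult, of 55 other tested genes of the pathway by role, without the correction; filled circles were called and dashed lines mark a fold change of 4. Neurog3, which had no count in the adults, is not drawn. Most called genes lie on the adult side, and Dtx2 and Hes5 lie on the embryo side.

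Of 7 other targets 5 were tested and 1 was called higher in the embryo (11.3% of all genes), 0 after the correction (6.88%). Hes5, a repressor active in neural progenitors, was that gene, at a very low level, 0.293 to 4.12 CPM in the embryos (median 1.68) and 0.242 and 0.337 CPM in the adults, with 1 embryo not above both adults. Its log2 fold change was 2.75 (edgeR adjusted p = 0.0334), and the call was lost without embryo 2 (2.46, edgeR adjusted p = 0.0547), without embryo 3 (2.55, edgeR adjusted p = 0.0536), without adult 1 (2.51, edgeR adjusted p = 0.182), without adult 2 (2.99, edgeR adjusted p = 0.131) and after the correction (1.57, edgeR adjusted p = 0.17; 1.81, edgeR adjusted p = 0.045 without both embryos 1 and 4 as well). Nrarp, a target that feeds back on the receptor complex, had 16.1 to 50.3 CPM (median 36.0) and 8.85 and 8.13 CPM, a log2 fold change of 1.96 (edgeR adjusted p = 0.00149) just short of a call, which was 1.40 after the correction, and 2.20 and called without both embryos 1 and 4. It was also called without embryo 1 (2.12), without embryo 4 (2.08) and without embryo 6 (2.04). Hey2 was lower in every embryo, 3.30 to 13.6 CPM (median 8.11) against 19.3 and 21.3 CPM, with a log2 fold change of −1.24 (edgeR adjusted p = 0.0223) that did not pass without adult 1 (edgeR adjusted p = 0.0826) or adult 2 (edgeR adjusted p = 0.128). Hes1, Hey1 and Nrarp were thus higher and Hey2 lower in every embryo than in both adults, which held for 26.2% and 32.9% of all tested genes. Heyl, the highest of the other targets by mean CPM in both stages, overlapped between the groups (0.58, edgeR adjusted p = 0.175). After the correction Heyl was at 0.75 (edgeR adjusted p = 0.0225), with every embryo above both adults. Hes7 overlapped without and with the correction (0.17, edgeR adjusted p = 0.9 without it).

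Of 4 proneural factors, which drive differentiation and are repressed by Hes proteins in neural tissue, 1 was tested and called higher in the embryo (11.3% of all genes). Neurog3 had 0.353 to 4.49 CPM in the embryos (median 1.76) and 0 counts in both adults, and against a floor of 3 counts per library the embryo mean was at least 21.8-fold higher. With no adult counts, it passed the filter on mean counts through the embryos alone. Its call is among those counted for the wider list, without and with the correction.

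The promoter table of RefSeq (GRCm38.p6; 250 bases before to 50 after a start) was searched on both strands for GTGGGAA, a core motif of RBPJ, and CACNAG, the N-box bound by Hes repressors. It held 7 of the 9 members, in 9 windows, and had no entry for Hes1 and Hey1. GTGGGAA was in 0 of those 9 windows and in 6.38% of all 32851 windows, and CACNAG was in 5 of the 9 (Notch1, Notch2, Notch3, and 1 window each of Dll1 and Hes6) and in 42.5% of all. In the wider list GTGGGAA was in 7 of 67 windows, those of Hes5, Hes7, Hey2, Lfng, Spen, Aph1a and Psen2. Hes5 and Hey2 each had 2 matches, and their stretches are shown because both are pathway targets and they differed in opposite directions. Hes5 is given for chr4:154960673-154960922 on the plus strand, Hey2 for chr10:30842781-30843033 on the minus strand and Spen, a called gene, for chr4:141538590-141538616 on the minus strand, each 5′ to 3′ with the motif or its reverse complement in capitals. A match is a description of letters and no evidence of binding.
Hes5: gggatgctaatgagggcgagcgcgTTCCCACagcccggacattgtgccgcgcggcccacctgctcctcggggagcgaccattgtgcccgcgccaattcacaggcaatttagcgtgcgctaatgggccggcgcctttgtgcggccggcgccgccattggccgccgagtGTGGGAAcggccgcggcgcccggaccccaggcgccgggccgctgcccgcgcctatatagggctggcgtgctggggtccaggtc
Hey2: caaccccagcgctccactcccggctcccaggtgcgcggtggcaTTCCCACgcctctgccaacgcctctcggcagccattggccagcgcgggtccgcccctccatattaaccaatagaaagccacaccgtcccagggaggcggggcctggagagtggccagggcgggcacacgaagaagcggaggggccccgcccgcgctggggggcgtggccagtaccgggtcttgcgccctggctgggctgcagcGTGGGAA
Spen: gcgcgcgccgGTGGGAAgcgtccggca

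For each member the 2 tested genes nearest in profile, among those averaging 100 counts or more, over the 9 libraries were found by the root mean square difference of mean-centred log2(CPM + 0.5). They were Plekhh2 (0.171) and Ptprb (0.173) for Notch1, Irs4 (0.229) and Slc22a23 (0.241) for Notch2, and Nup188 (0.136) and Kdm4a (0.144) for Notch3. For the ligands they were Bmper (0.244) and Myo19 (0.251) for Dll1, Hnrnpa1 (0.173) and Rhobtb1 (0.189) for Jag1, and Rnf112 (0.162) and Abcc5 (0.177) for Jag2. For the basic helix-loop-helix factors they were Dnlz (0.202) and Bcl7c (0.217) for Hes1, Gnb2 (0.0926) and Tex264 (0.0975) for Hes6, and Igsf9 (0.167) and Hs3st1 (0.208) for Hey1. These are likenesses of 12744 compared profiles and say nothing of a shared function.

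Markers of other cell types moved between the same libraries, where 11.3% of all tested genes were called higher in the embryo and 14.6% in the adult, and in these bulk samples fewer cells of a type and less RNA per cell cannot be told apart. Of 9 endothelial markers 2 (Emcn and Egfl7) were called higher in the embryo and 0 in the adult, and without both embryos 1 and 4 these and Cdh5 (2.03) and Tie1 (2.11) were. Their summed level was 241 to 758 CPM in the embryos (median 347), with the highest in embryo 2, and 209 and 135 CPM in the adults, and the most abundant were Emcn in the embryo and Plvap in the adult. Embryo 2 was also the highest embryo for the mural cell or mesenchyme, macrophage and neural markers below, and among the receptors and ligands for Notch1, Notch4, Jag2 and Dll4. Of 10 mural cell or mesenchyme markers 6 (Cspg4, Acta2, Tagln, Col1a1, Pdgfra and Lum) were called higher in the embryo and 0 in the adult. Rgs5 went the other way (−0.98, edgeR adjusted p = 0.0142), with every embryo below both adults. After the correction Rgs5 was at −0.06 (edgeR adjusted p = 0.866) with overlapping groups. The summed level of the 10 markers was 607 to 1777 CPM (median 1090) and 728 and 463 CPM, and Col1a2 was the highest by mean CPM in both stages. Per kb Dcn was level with it in the embryo (64.4 against 64.1) and above it in the adult (74.9 against 52.0). All markers of these lists had counts in both stages.

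Of 10 posterior lobe or neural markers 9 were tested, 2 were called higher in the embryo (Nkx2-1 and Rax) and 3 in the adult (Avp, Oxt and Gfap). Their summed level was 112 to 446 CPM (median 131, highest in embryo 2) and 132 and 111 CPM, Tubb3 was the most abundant in both stages, Avp had 0 counts in all embryos and Neurod6 had 0 counts in all libraries. Of 8 proliferation markers 5 were called higher in the embryo and 0 in the adult, and by the adjusted p alone 6 were higher in the embryo. Top2a was at −0.04 and overlapped between the groups. Mki67 was at −0.88 (edgeR adjusted p = 0.148), with 6 of 7 embryos below both adults. Without both embryos 1 and 4 Mki67 was at −1.49 (edgeR adjusted p = 0.00153). The summed level of the 8 markers was 728 to 1160 CPM (median 832) and 277 and 254 CPM, led by Mcm5 in the embryo and Pcna in the adult. Of 7 stem cell markers 0 were called higher in the embryo and 2 in the adult, with 131 to 185 CPM (median 148) and 207 and 203 CPM and Sox2 the highest by mean CPM in both stages. In the embryo S100a1 was close to it (37.0 against 37.3 CPM). Per kb S100a1 was above Sox2 in the embryo (54.7 against 18.1) and in the adult (40.9 against 29.4). The embryos carried the Sox2 Egfp/+ genotype, and none is named for the adults. For Sox2, and for the sum it enters, stage and genotype cannot be told apart. Of 7 macrophage markers 0 were called, with 138 to 336 CPM (median 155) and 105 and 160 CPM, led by C1qb and Csf1r.

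Of 9 erythroid markers 8 were called higher in the embryo and 0 in the adult, but 6 without both embryos 1 and 4, where Hba-a2 and Hbb-bs fell short of the fold. Their summed level was 6432 to 225340 CPM in the embryos (median 19806) and 763 and 1977 CPM in the adults, led by Hbb-y in the embryo and Hbb-bs in the adult, with Hbb-bh1 at 0 counts in both adults. The primordium markers summed to 605 to 1485 CPM (median 1135, led by Pitx1) and 565 and 489 CPM (led by Six6), and the hormone cell markers to 1204 to 2203 CPM (median 1826, led by Cga) and 155873 and 164628 CPM (led by Gh in their mean). In adult 1 Prl was above Gh (62124 against 53470 CPM). After the length and GC correction 2 primordium, 2 posterior lobe or neural, 4 erythroid, 5 mural cell or mesenchyme, 4 proliferation and 2 endothelial markers (Emcn and Tie1, with Egfl7 at 1.15 and not called) were called higher in the embryo, and 14 hormone cell, 3 posterior lobe or neural and 1 stem cell markers in the adult. The part of these cell types, of the globin load and of depth in the differences of the Notch genes was not tested.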

How the data were processed

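RNA of 7 embryo and 2 adult libraries was prepared from 50 ng by directional poly(A) selection and sequenced as 75 bp pairs. The authors trimmed reads with Trimmomatic 0.39, aligned them with STAR 2.7.5b to mm10 and deposited raw counts per gene, without normalisation, for 55450 genes. All 55450 identifiers were found in GENCODE mouse release 21 (Ensembl 96, GRCm38). Column 4, the strand-specific count, was taken. The members and lists were chosen with earlier results of these data known. Of the planned lists, 2 genes are not reported here.

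The 19371 genes averaging 5 or more counts were normalised with TMM and tested with the edgeR 4.0.16 quasi-likelihood test in R 4.3.3, stage being the only term, with Benjamini-Hochberg adjustment over all of them. Levels are CPM. The correction for length and GC content used splines with 4 degrees of freedom on genes averaging 50 or more counts. DESeq2 1.42.0, other normalisations, filters, thresholds and strands, the replicate block and left-out libraries were alternatives. The correction combined with leaving out both embryos 1 and 4 was chosen after seeing the data. The fit was tested on simulated data. The lists and the 2 nearest profiles per member set which genes are named. Tables were made with pandas 2.3.3 and numpy 2.4.6, permutation tests with scipy 1.17.1 and plots with matplotlib 3.10.9, in Python 3.11.15. Replicate libraries differed by more than sampling noise. Counting intervals and floors (3 counts, at most 0.22 CPM) cover counting error only, since PCR copies were not told apart.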

Additional observations from a re-analysis of the deposited data

Results flagged for a closer look

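Among 74 values examined over the 7 embryos, 8 had 1 library far from the others, where chance flags about 1 in 20. Embryo 7 was high for Cntn1 (95.3 CPM), Adam10 (91.2 CPM), Adam17 (40.3 CPM) and Rbpj (40.9 CPM). Embryo 2 was high for Dtx4 (60.3 CPM) and for the shares of Dll4 (23.3%) and Jag2 (28.3%) among the ligands. Embryo 1 was high for Dlk2 (1.83 CPM).

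Counts on the strand opposite to the gene, which were left out of all fits but the unstranded alternative, exceeded the share over all genes in both adults for 2 members. For Notch1 they reached 10.3% of its counts on either strand (75 and 89 read pairs in the adults), and for Dll1 17.7% (16 and 53). Over all genes the share was 4.59% and 4.38%. In single libraries Notch3 also exceeded it in adult 2 (7.89%, 97 read pairs), Jag2 in embryo 1 (9.02%, 12 read pairs) and Notch1 in embryos 1, 3, 4 and 6 (5.03% to 5.88%). With unstranded counts Notch1 was at −0.43 (edgeR adjusted p = 0.558) and Dll1 at 1.26 (edgeR adjusted p = 0.0332, which passes). Annotated exons on the other strand overlap Notch1 (0610009E02Rik, 1068 bp, and Gm13568, 414 bp), Dll1 (A930024N18Rik, 867 bp) and Notch3 (Gm17276, 488 bp).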

How the results depend on the processing

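The number of all genes called, 5001 (2182 higher in the embryo, 2819 in the adult), was 2634 (1276 and 1358) with 10 counts required in every library, 1744 (613 and 1131) in a test of the fold against 4, 8960 (4155 and 4805) with a fold change threshold of 2 and 9948 (4650 and 5298) without one. With the length and GC correction 1333 were higher in the embryo. The 1 member called became 0 with library size alone and in the test against 4, and 5 (4 higher in the embryo, 1 in the adult) with a threshold of 2 or none. The 9 wider genes called (3 and 6) became 4 (1 and 3) with the correction, 3 (1 and 2) with the correction without both embryos 1 and 4, 3 (1 and 2) tested against 4, 25 (7 and 18) with a threshold of 2 and 29 (9 and 20) with none. Without both embryos 1 and 4 they were 11 (4 and 7). With 10 counts required in every library 1 was higher in the embryo.

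With each library left out in turn, all calls ran from 3683 to 5290 (1482 to 2362 higher in the embryo, 2201 to 2958 in the adult), members called from 0 (without adult 2) to 1, and wider genes from 8 to 10 (2 to 4 and 6 to 7). A lone adult was then assumed to vary like the embryos.

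Summed CPM in place of per-length levels gave differences in share of −12.3 (Dll3), 24.9 (Jag1) and −30.8 (Jag2) percentage points. All 9 shares kept their direction with each library left out.

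Directions turned for Notch1 with the correction (1.05, and 1.19 without both embryos 1 and 4 as well), without both embryos 1 and 4 (0.09) and with a library left out (−0.19 to 0.14). They turned for Notch2 with the correction (1.11 and 1.19) and with a library left out (−0.22 to 0.07), for Hes6 with the correction (−0.12 and −0.07) and for Psenen (−0.46 and −0.38). Rbpj turned with the correction (1.10 and 1.09), with a library left out (−0.18 to 0.10) and with the replicate block (0.05). Notch3, Dll1, Jag1, Jag2, Hes1 and Hey1 kept their direction in all 20 alternatives. The cause of these changes was not tested.

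With replicate number as a replicate block, only embryos 1 and 2 share a number with an adult. The stage difference then rests on them and both adults alone. In that fit 4236 genes, 1 member and 8 wider genes were called. Notch1 was at 0.21, Notch2 at −0.74, Dll1 at 0.31 (edgeR adjusted p = 0.672) and Hey1 at 1.18. Psen2 (−0.81, edgeR adjusted p = 0.142) did not pass, and Neurl1b (−1.86) and Hes5 (2.14) were not called while Ep300 (−2.04) was. Same-numbered libraries did not deviate together (r = 0.03 and −0.0145), and the numbers name different animals.

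With unstranded counts 8 wider genes (2 and 6) were called, Hes5 (3.09, edgeR adjusted p = 0.0657) and Nrarp (1.90, edgeR adjusted p = 0.158) did not pass, and Dll1 (1.26, edgeR adjusted p = 0.0332) did. Without adult 2 Jag1, Hes6, Psen2 (edgeR adjusted p = 0.0637) and Hey2 did not pass, and without adult 1 Fbxw7 (−1.56, edgeR adjusted p = 0.0692) and Hey2 did not.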
